A study of Mus musculus with 23 samples.

Results

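Translational efficiency, the amount of an mRNA bound to ribosomes relative to its total amount, was compared between Eif4enif1+/- (het) and wild-type (WT) mouse germinal vesicle (GV) oocytes, which are fully grown oocytes resting in meiotic prophase. The comparison drew on the 8 GV libraries among the 23 samples of the series. There were 2 oocyte samples per genotype, and each had been split by T&T-seq into a translatome and a transcriptome library. The labels give the treatment of every GV sample as none. The age and strain of the mice, the structure of the Eif4enif1 allele, the number of oocytes per sample and whether samples came from separate animals are absent from the labels. The p-values therefore measure only the spread between these libraries, and the main fit treated the 2 fractions of a sample as separate. The translatome was ribosome-bound mRNA captured with RiboLace, a bait related to puromycin, and the transcriptome was mRNA from direct lysis. Both were amplified as full-length cDNA.

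Eif4enif1 encodes 4E-T, which binds the cap-binding protein eIF4E, carries it into cytoplasmic granules and keeps bound mRNAs from being translated. A fully grown oocyte has largely stopped transcription and lives on stored maternal mRNA. Part of this mRNA is held with short poly(A) tails and taken up by ribosomes only when meiosis resumes, through elements in the 3′ UTR that recruit the protein CPEB. The efficiency of each gene in each sample was the log2 ratio of its translatome level to its transcriptome level, both as TMM-scaled CPM (counts scaled to a common library size) with 0.5 added. The efficiency difference, het relative to WT, was the genotype by fraction interaction of an edgeR quasi-likelihood model over all 8 libraries. It is given as a log2 value with its standard error (SE), and its adjusted p is that of Benjamini-Hochberg across 22409 genes.

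The libraries held 17.84 to 50.49 M counts, apart from the transcriptome of het sample 1, which was the shallowest at 3.62 M. All 12 GV oocyte markers examined, among them the zona pellucida genes Zp1, Zp2 and Zp3 and the growth factors Gdf9 and Bmp15, had counts in every library. Their summed level was 56688 and 31574 CPM in the het translatome against 31661 and 71576 CPM in the WT translatome. The same 2 high libraries, het sample 1 and WT sample 2, gave the largest share of their counts to their 100 most abundant genes, 32.3% and 34.7%, against 23.3 to 26.7% in the other 6.

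Eif4enif1 itself had lower mRNA in both fractions of het oocytes, and its efficiency did not differ detectably. Its translatome level was 150 and 97.1 CPM in het samples against 312 and 270 CPM in WT samples. Its transcriptome level was 87.3 and 96.1 CPM in het samples against 217 and 222 CPM in WT samples, so the libraries of the 2 genotypes did not overlap in either fraction. The log2 change was -1.24 in the translatome (SE 0.26, adjusted p = 0.0224) and -1.26 in the transcriptome (SE 0.26, adjusted p = 0.0283). The efficiency was 0.78 and 0.02 in het samples and 0.53 and 0.28 in WT samples, and the efficiency difference was 0.02 (SE 0.37, adjusted p = 0.994).

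Across all genes, 3 passed the adjusted threshold of 0.05 for an efficiency difference, which is 0.0134% of those tested. Efficiency rose in het oocytes for 1 of them, Gm21887 (0.00446%), and fell for 2, Mtfr2 and Mycl (0.00892%). At an unadjusted p under 0.05 there were 995 genes with a positive difference (4.44%) and 1004 with a negative one (4.48%). The split of these depended on the scaling of the libraries, at 739 positive and 1194 negative with RLE size factors and 466 positive and 1149 negative with library totals. The median efficiency difference of all genes was likewise 0.14 with TMM, 0.07 with RLE and 0.01 with library totals, so gene groups below are also given relative to the median of all genes. The fractions of 1 oocyte sample share a specimen number. With that sample entered as a replicate block, 7 genes passed (0.0312%), the same 3 and Ier5l, Ttn, Gm50322 and Arhgap11a.

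The precision of the difference and the agreement of samples bound what could be called. Among the 9075 genes averaging 10 CPM or more, the median SE was 0.40 for the efficiency difference and 0.28 for the translatome change. Efficiencies correlated across these genes at 0.771 between the 2 het samples and at 0.674 between the 2 WT samples. Between genotypes, the r was 0.670 for het sample 2 with WT sample 1 and 0.647 for het sample 1 with WT sample 2, against 0.538 for het sample 1 with WT sample 1 and 0.517 for het sample 2 with WT sample 2. These r are descriptions and carry no test. Some cross-genotype pairs therefore resembled each other about as closely as the WT pair did.

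Mtfr2, an activator of mitochondrial fission that lies at chr10:20347770-20361304 (GRCm38, plus strand), had the smallest p of all genes tested. Its translatome level was 10.1 and 10.6 CPM in het samples against 35.5 and 40.9 CPM in WT samples. Its transcriptome level was 108 and 103 CPM in het samples against 57.6 and 66.5 CPM in WT samples. Ribosome-bound Mtfr2 mRNA was therefore low in both het samples while total Mtfr2 mRNA was high in both, with no overlap in either fraction. Its efficiency was -3.36 and -3.22 in het and -0.69 in both WT samples, a difference of -2.65 (SE 0.34, adjusted p = 0.0254; with the replicate block 0.0200).

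Mycl, a MYC-family transcription factor at chr4:122995652-123002485 (plus strand), had higher total mRNA in het without higher ribosome-bound mRNA. It had 6.11 and 8.14 CPM in the het translatome against 10.7 CPM in both WT translatomes. It had 5.75 and 5.24 CPM in the het transcriptome against 0.632 and 0.559 CPM in the WT transcriptome. These WT levels were near the 0.5 CPM added for the per-sample efficiency. The transcriptome rose by a log2 of 3.18 (SE 0.38, adjusted p = 0.00171), whereas the translatome change of -0.59 had an adjusted p of 0.317. The efficiency was 0.08 and 0.59 in het and 3.31 and 3.40 in WT, a difference of -3.77 (SE 0.50, adjusted p = 0.0254).

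Gm21887 is a predicted gene for which the reference annotation used here gave no coordinates, and its function is not known. Its translatome level was 62.1 and 63.7 CPM in het samples against 11.4 and 9.59 CPM in WT samples, and its transcriptome level was 3.75 and 5.62 CPM in het samples against 12.1 and 6.73 CPM in WT samples. Its efficiency was 3.88 and 3.39 in het and -0.08 and 0.48 in WT, a difference of 3.51 (SE 0.47, adjusted p = 0.0254). None of the 3 held its call with any 1 het library, or either whole het sample, left out, which left 1 library in each group concerned. Across the alternatives the difference ranged from -2.82 to -2.44 for Mtfr2, from -4.99 to -3.48 for Mycl and from 3.04 to 3.90 for Gm21887. All 3 also missed the threshold without the first WT transcriptome or the second WT translatome, as did Mtfr2 and Mycl without the second WT transcriptome. Gm21887 missed it when the test was limited to genes averaging 10 CPM or more (adjusted p = 0.0564). With every library thinned to the depth of the shallowest, the adjusted p was 0.0759 for Mtfr2, 0.0997 for Mycl and 0.0759 for Gm21887. The directions held in every alternative in which the gene was tested, 21 for Mtfr2 and Gm21887 and 20 for Mycl.

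**Figure D1:**
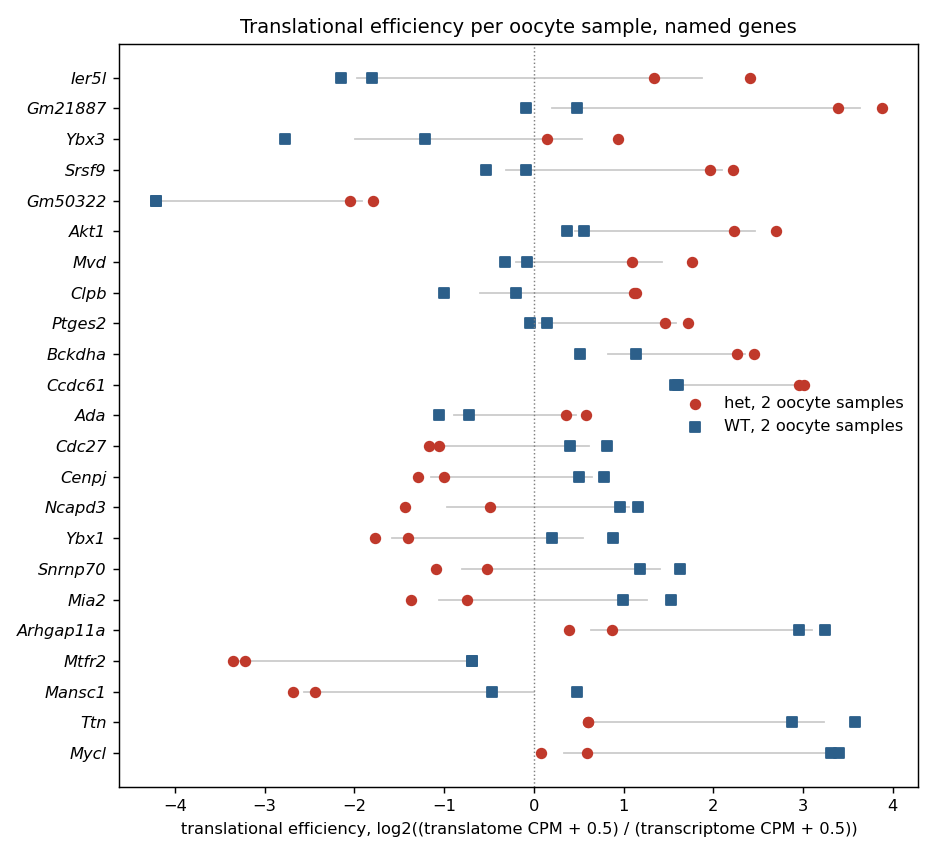
Translational efficiency (log2 of translatome over transcriptome CPM, x axis) of named genes (rows, ordered by efficiency difference). Rows are the 3 genes called, the 4 added by the replicate block and the genes with the 10 smallest p in each direction. The last were ranked only among genes with samples that do not overlap and a mean of at least 10 CPM. Circles are the 2 het samples, squares the 2 WT samples and grey lines join the means. In each row the circles lie to one side of the squares, for example at -3.36 and -3.22 against -0.69 for Mtfr2. For the ranked genes this was a condition of the choice.

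The 4 genes that passed only with the replicate block had larger spread within a group or a p just past the threshold without it. Ier5l, an immediate early response gene, had 36.8 and 48.0 CPM in the het translatome against 3.92 and 0.832 CPM in the WT translatome, with a difference of 3.67 (SE 0.85, adjusted p = 0.309; with the block 0.0190). Arhgap11a, a GTPase-activating protein, had 28.3 and 38.7 CPM in the het translatome against 92.4 and 78.8 CPM in the WT translatome, with a difference of -2.48 (SE 0.39, adjusted p = 0.0629; with the block 0.0371). Ttn, which encodes the muscle protein titin, had an efficiency of 0.60 in both het samples and 3.58 and 2.88 in WT. Its difference was -2.76 (SE 0.41, adjusted p = 0.0629; with the block 0.0293). Gm50322, a long noncoding RNA gene on chromosome 19, had a difference of 2.28 (SE 1.00, adjusted p = 0.540; with the block 0.0338), and its het transcriptome levels of 54.5 and 340 CPM differed more from each other than either did from WT at 130 and 105 CPM.

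The next genes, ranked by p with samples that do not overlap and a mean of at least 10 CPM, did not pass the threshold and are given as values. Among positive differences, Srsf9, a splicing factor of the SR family, stood at 2.49 (SE 0.39, adjusted p = 0.0629), with 51.3 and 62.5 CPM in the het translatome against 5.43 and 5.56 CPM in the WT translatome. Akt1, the kinase downstream of PI3-kinase, stood at 2.08 (SE 0.38, adjusted p = 0.176), with an efficiency of 2.23 and 2.70 in het and 0.37 and 0.55 in WT. The other positive differences were those of the mitochondrial genes Ptges2 (1.58), Bckdha (1.58), a subunit of branched-chain ketoacid dehydrogenase, and Clpb (1.76), a chaperone. Mvd (1.78) of the mevalonate pathway, Ada (1.40), or adenosine deaminase, and Ccdc61 (1.53) completed the set.

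Ybx3 and Ybx1, paralogous cold-shock-domain proteins that bind and store mRNA, lay at opposite ends of the ranking. Ybx3 had 162 and 178 CPM in the het translatome against 15.1 and 15.2 CPM in the WT translatome, with an efficiency of 0.94 and 0.15 in het and -2.77 and -1.21 in WT. Its difference was 2.69 (SE 0.59, adjusted p = 0.308), and its translatome level rose by a log2 of 3.49 (SE 0.45, adjusted p = 0.0026). Ybx1 had 27.3 and 32.8 CPM in the het translatome against 75.5 and 67.3 CPM in the WT translatome, with an efficiency of -1.77 and -1.40 in het and 0.20 and 0.89 in WT. Its difference was -2.08 (SE 0.41, adjusted p = 0.231), and its translatome level fell by 1.25 on the log2 scale (SE 0.29, adjusted p = 0.0312). Neither transcriptome change passed, at 0.80 for Ybx3 (adjusted p = 0.307) and 0.83 for Ybx1 (adjusted p = 0.135).

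The remaining negative differences came from genes of several kinds. Snrnp70, a protein of the U1 spliceosomal particle, stood at -2.30 (SE 0.41, adjusted p = 0.166), Mansc1, a membrane protein, at -2.74 (SE 0.43, adjusted p = 0.0629) and Mia2, which acts in export from the endoplasmic reticulum, at -2.31 (SE 0.36, adjusted p = 0.0629). The others act in cell division. Ncapd3, a condensin II subunit, stood at -2.07, Cenpj, a centriole assembly factor, at -1.81, and Cdc27, a subunit of the anaphase-promoting complex, at -1.71. For Cdc27 the translatome level was 62.8 and 72.4 CPM in het samples against 97.7 and 96.1 CPM in WT samples, whereas the transcriptome level was 142 and 151 CPM in het samples against 55.3 and 72.4 CPM in WT samples.

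**Figure D2:**
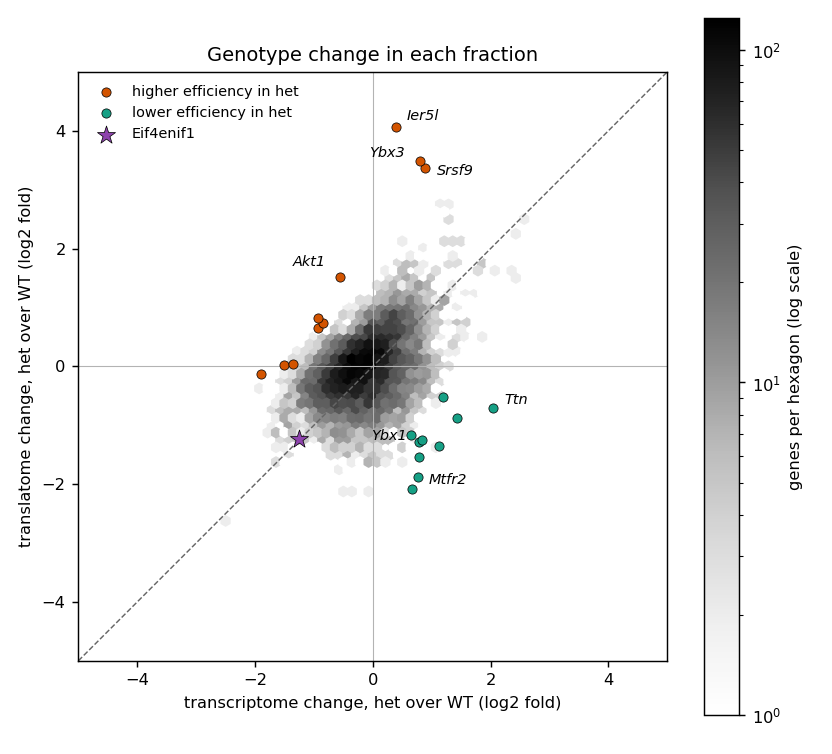
Log2 change of the translatome (y axis) against that of the transcriptome (x axis), het over WT, for the 9075 genes averaging 10 CPM or more, as hexagons shaded by the number of genes on a log scale. The dashed line marks equal change. Orange points above it are the named genes of higher efficiency in het and green points below it those of lower efficiency, while Eif4enif1 (star) lies on it at -1.26 and -1.24.

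Cytoplasmic polyadenylation elements (CPEs) were looked up because they mark mRNAs whose translation is switched in oocytes. TTTTAT or TTTTAAT was searched on the mRNA strand only, in the last 100 bases of the 3′ UTR of 1 annotated transcript per gene (GENCODE M21, GRCm38). Of the 10 genes that led the negative ranking, 8 had such a sequence and 5 of these held an element, against 1 of 10 at the positive end. The windows of 5 of these 6 genes are shown with the element closest to the transcript end in capitals.
Mtfr2: atataatgtagaTTTTATaataaatggatc
Snrnp70: tagatttttttTTTTAATccggtcccttgg
Ncapd3: ataattacaaatTTTTATtaaaagaggtgt
Ybx1: aagaacttcatTTTTAATttgtaataaagt
Ada: ctttggatttatTTTTATtatttttaaata
They lie at chr10:20361268-20361297 (plus strand), chr7:45376490-45376519 (minus), chr9:27095241-27095270 (plus), chr4:119278050-119278079 (minus) and chr2:163726601-163726630 (minus), in that order. In Mtfr2 the element starts 25 bases before the annotated end and is followed at once by the polyadenylation signal AATAAA. A match describes the annotated end, which need not be the end used in oocytes.

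The share of genes with an element also differed by direction over the whole table. Of the 14523 genes tested that had a 3′ UTR sequence, 2683 (18.5%) held an element. It was 24.1% of the 831 with a negative difference at an unadjusted p under 0.05 and 11.1% of the 666 with a positive one. In 182 genes (1.25%) a TTTTAAT ran into AATAAA, and in 145 of them (0.998%) there was no other match. Genes with an element also had lower GC content, so the comparison was repeated within quintiles of transcript GC, for protein-coding genes of at least 10 CPM. Genes with an element had the lower median in all 5 quintiles, at -0.19 against -0.11 without one in that of lowest GC, -0.02 against 0.17 in the middle one and 0.29 against 0.51 in the one of highest GC. The gap between the 2 classes was 0.08 to 0.22, while genes without an element differed by more than that across GC, at -0.11 in the lowest and 0.51 in the highest quintile. Within quintiles of exon length the gap narrowed toward long transcripts. The median was 0.14 with an element against 0.41 without one in the shortest quintile, and -0.25 against -0.19 in the longest.

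**Figure D3:**
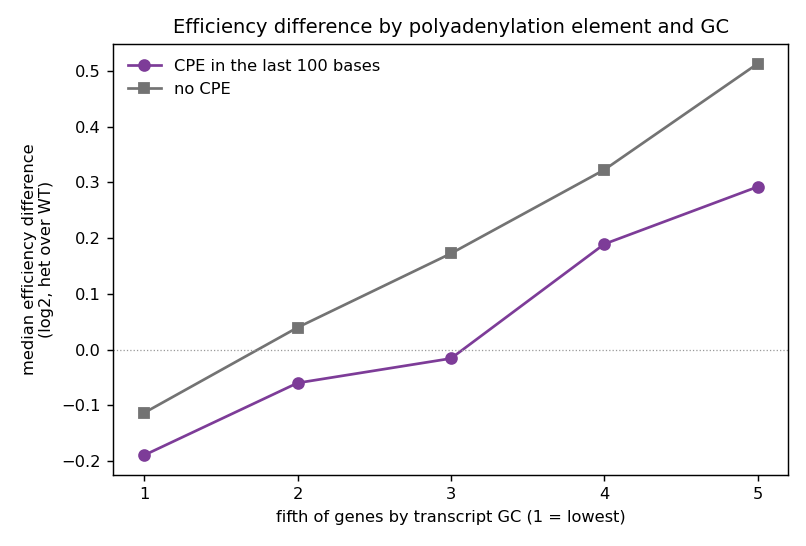
Median efficiency difference (log2, het over WT, y axis) of protein-coding genes with (circles) and without (squares) a CPE in the last 100 bases of the 3′ UTR, by quintile of transcript GC (x axis). Circles lie below squares in each quintile, and both rise with GC, to 0.29 and 0.51.

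The efficiency difference followed transcript length and GC content. Of the genes averaging 10 CPM or more, 8885 had an annotated length. In the decile with the shortest exon length, with a median of 619 bases, the median efficiency difference was 0.32, and in the decile with the longest it was -0.25. In the decile of lowest GC it was -0.16 and in the decile of highest GC it was 0.50. At an unadjusted p under 0.05, 16.6% of the genes of highest GC had a positive and 4.05% a negative difference, while 1.12% of the longest had a positive and 13.8% a negative one.

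The 2 features correlated with different fractions. Across genes, the r with log2 length was -0.32 for the efficiency difference, -0.27 for the translatome change and 0.04 for the transcriptome change. The r with GC was 0.31 for the efficiency difference, 0.03 for the translatome change and -0.28 for the transcriptome change. By r, length thus went with the translatome change and GC with the transcriptome change. The median transcriptome change still varied with length, at 0.07 in the shortest decile, -0.30 in decile 4 and 0.13 in the longest. Genes share libraries and base composition, so these r describe the table and are not tests.

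Within samples, efficiency correlated with length more strongly in WT and with GC more strongly in het. Across deciles of length, the median efficiency in het rose to 0.12 and 0.22 in decile 6 and then fell. In WT it was 0.20 and 0.04 in decile 6. The r of efficiency with length was 0.11 in both het samples and 0.35 and 0.33 in the WT samples, and the r with GC was 0.34 in both het samples and 0.10 and 0.09 in the WT samples. In the decile of highest GC the median efficiency was 0.40 and 0.42 in het and 0.02 and -0.06 in WT. In the longest decile it was 0.03 and -0.15 in het and 0.20 and 0.23 in WT. In the shortest decile it was -0.29 and -0.60 in het and -0.82 and -0.64 in WT, so that het sample 2 and WT sample 2 were close there. All 4 het and WT pairings nevertheless had the same sign in each of these end groups, from 0.14 to 0.53 in the shortest and from 0.39 to 0.49 in that of highest GC. Depth and the share of the top 100 genes also differed between libraries, and their part in the trends was not tested.

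**Figure D4:**
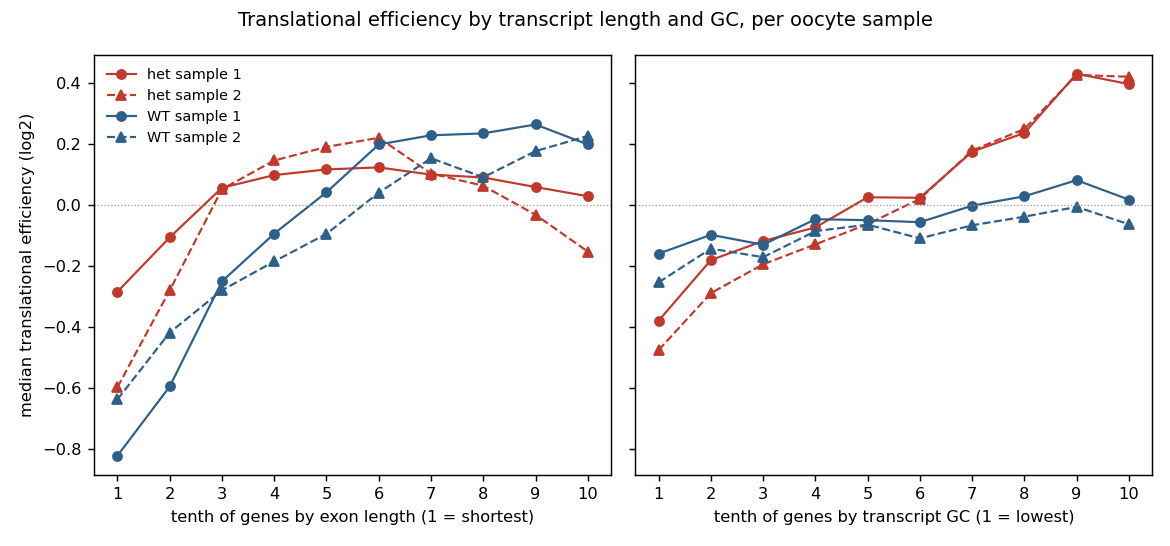
Median translational efficiency (log2, y axis) by decile of genes ordered by exon length (left) or transcript GC (right), for the 8885 genes averaging 10 CPM or more. Red lines are the 2 het samples and blue lines the 2 WT samples. With length the blue lines end at 0.20 and 0.23, while the red lines climb to 0.12 and 0.22 in decile 6 and end at 0.03 and -0.15. With GC the red lines climb to 0.40 and 0.42 while the blue lines end at 0.02 and -0.06.

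Split by terciles of both features, the extremes were short transcripts of high GC and long transcripts of low GC. The first group of 1254 genes had a median difference of 0.51, with 186 positive and 14 negative at an unadjusted p under 0.05. The second group of 1260 genes had a median of -0.23, with 10 positive and 197 negative. Coding length showed a similar trend, at 0.26 in the shortest and -0.42 in the longest decile. With per-library trends in length and GC removed, the count of genes called was 5, and Mtfr2 (-2.82, adjusted p = 0.0105), Mycl (-4.01, adjusted p = 0.0200) and Gm21887 (3.51, adjusted p = 0.0200) were among them.

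Genes called in the translatome mostly changed in the same direction in the transcriptome. Of the 1034, 924 (89.4%) had a transcriptome change of the same sign, against 64.6% of all genes. The 234 genes called in both fractions all changed in the same direction. Some genes nevertheless changed on ribosomes with little change in total mRNA. There were 140 genes called in the translatome, where 1034 genes (4.61%) were called in all, whose transcriptome log2 change was under 0.25 in size. The genes named from them were chosen by that limit, so their flat total mRNA is a condition of the choice. None of those named passed the adjusted threshold for an efficiency difference. Among those that rose on ribosomes, Ext1, a heparan sulfate polymerase, had 54.2 and 58.8 CPM in the het translatome against 21.4 and 24.1 CPM in the WT translatome, a log2 change of 1.31 (SE 0.24, adjusted p = 0.0127). Its transcriptome change was 0.17. Mrpl54 (1.16) and Mrpl58 (1.07) of the mitochondrial ribosome, the RNA polymerase III subunit Crcp (1.12) and Dnttip1 (1.27), a partner of histone deacetylases, also rose on ribosomes, with transcriptome changes between 0.04 and 0.19.

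Among those that fell on ribosomes, Slc6a9, the glycine transporter GLYT1 by which oocytes regulate their volume, had 36.3 and 34.9 CPM in the het translatome against 203 and 104 CPM in the WT translatome. Its transcriptome level was 33.5 and 44.6 CPM in het samples against 45.4 and 40.5 CPM in WT samples, so total mRNA overlapped in range while ribosome-bound mRNA did not. The log2 change in the translatome was -2.11 (SE 0.31, adjusted p = 0.00493) and the efficiency difference was -1.99 (SE 0.43, adjusted p = 0.308). Ppt2 (-1.83), a lysosomal thioesterase, Tbc1d14 (-1.63), a regulator of autophagy, the proteasome activator Psme3 (-1.41) and the transporter-like Mfsd14b (-1.50) also fell on ribosomes, with transcriptome changes between -0.20 and -0.03.

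The reverse, a change of total mRNA with a translatome log2 change under 0.25 in size, was seen for 38 of the genes called in the transcriptome. The genes named from them were likewise chosen by that limit. In all, 572 genes were called in the transcriptome (2.55% of those tested), of which 317 rose and 255 fell. That split was 346 and 181 with RLE scaling and 378 and 125 with library totals. Tob1 and Btg1, which recruit the CCR4-NOT deadenylase and restrain proliferation, rose in total mRNA. Tob1 had 18.3 and 20.3 CPM in the het transcriptome against 7.54 and 4.66 CPM in the WT transcriptome, against 9.30 and 5.94 CPM in the het translatome against 7.09 and 7.48 CPM in the WT translatome. Its transcriptome change was 1.67 (SE 0.35, adjusted p = 0.027) and that of Btg1 was 1.33 (SE 0.29, adjusted p = 0.0334). Pkn2 (1.31), a protein kinase, Atad2 (1.28), a chromatin ATPase, and Pnn (1.26), a splicing-associated protein, rose likewise, and Mvd (-1.90), Ccdc61 (-1.51), Ada (-1.36), Stxbp2 (-1.58) and Chrnd (-1.41) fell.

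Gene lists were read by counts and medians against all genes, since the share of genes past an unadjusted p of 0.05 was 4.44% for positive and 4.48% for negative differences. Efficiencies that did not overlap between genotypes were common everywhere, at 27.1% of all genes for higher and 17.1% for lower in het. Positive signs were also common, at 12924 of the 22409 genes with TMM scaling, and counts of signs below are to be read against that. Medians below are relative to the median of all genes unless stated. Apart from Mtfr2 and Mycl, no member of any list passed the adjusted threshold.

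Genes of oxidative phosphorylation had, as fitted, the highest medians of the lists that do not mark other cells. Of the 13 mitochondrially encoded subunits, 6 had a positive difference at an unadjusted p under 0.05 and none a negative one, and the median was 0.69, or 0.15 without the second het translatome. For mt-Atp6, an ATP synthase subunit, the efficiency was 0.26 and 0.59 in het and -1.10 and -1.04 in WT, a difference of 1.54 (SE 0.50, adjusted p = 0.457). For mt-Co3 of cytochrome oxidase it was 0.24 and 0.27 in het and -0.68 and -1.67 in WT. Both fractions were higher in het. The translatome level rose for all 13, against 2.61% of all genes, and the transcriptome level for 5, against 1.41% of all genes, with median changes of 2.13 and 1.29. These RNAs are translated inside mitochondria by another class of ribosome, and what carries them into the translatome was not tested.

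Nuclear-encoded subunits had smaller positive medians, and their per-sample values overlapped between genotypes. The median efficiency, not relative to all genes, was 0.01 and -0.88 in het and -1.31 and -0.40 in WT for complex I. For complexes II to V it was -0.08 and -0.81 in het and -1.21 and -0.47 in WT. Efficiencies were higher in het without overlap for 12 of 36 and 14 of 41, beside 27.1% of all genes, and lower for 0 in each list. Of 36 complex I subunits, 33 had a positive difference and 4 an unadjusted p under 0.05, all positive, with a median of 0.40. Ndufv1, which binds NADH, had an efficiency of 0.98 and 0.96 in het and -0.24 and -0.27 in WT, a difference of 1.24 (SE 0.41, adjusted p = 0.458). Of 41 subunits of complexes II to V, 39 were positive and 4 had an unadjusted p under 0.05, with a median of 0.32. Atp5e, a small subunit of ATP synthase, had a difference of 1.09. After removal of the length and GC trends the medians were 0.16 for complex I and 0.19 for complexes II to V, and 0.85 for the mitochondrially encoded subunits, whose transcripts are short and of low GC. The nuclear lists then lay below elongation factors (0.30), fusion genes (0.28) and TCA cycle genes (0.24). Without WT sample 1 the complex I median was -0.07, and without het sample 1 that of complexes II to V was -0.01.

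The other mitochondrial lists had medians on both sides of all genes as fitted. Mitochondrial ribosomal proteins had a median of 0.23, with 7 of 78 positive at an unadjusted p under 0.05 and none negative. The smallest p were those of Mrpl54 (1.12), Mrpl58 (1.00) and Mrps27 (0.86). The efficiencies of 47 of the 78 were higher in het without overlap and those of 2 lower, beside the 27.1% and 17.1% of all genes. Enzymes of the TCA cycle and pyruvate dehydrogenase had a median of 0.21, which was -0.04 without the first het translatome. Idh3g, a subunit of isocitrate dehydrogenase, had an efficiency of 0.77 and 0.60 in het and -0.46 and -0.72 in WT. Genes of fusion and inner-membrane shape (0.06) and of protein import (-0.05) lay near all genes as fitted, but the median of fusion genes was 0.28 with the length and GC trends removed. The import median kept its sign in 10 of the 21 alternatives. The import genes Timm50, Timm13 and Tomm40 had differences of 1.33, 0.84 and 0.83. In the fission list Mtfr2 was the only one of 12 members to pass the adjusted threshold, 6 of the 12 had a negative difference, and its relative Mtfr1 had -0.48 (SE 0.34, adjusted p = 0.681). The median of that list was -0.16, and 0.01 with the length and GC trends removed.

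Most parts of the translation machinery had medians somewhat above all genes. Cytosolic ribosomal proteins, whose mRNAs carry terminal oligopyrimidine (TOP) starts, had a median of 0.21, with 73 of 80 positive. The 4 of 80 past an unadjusted p of 0.05 were a share near that of all genes, and they included Rpl41 (1.02), Rps28 (1.01) and Rpl19 (0.85). For Rpl41 the efficiency was -0.53 and -1.14 in het and -1.90 and -1.85 in WT. The median efficiency of the 80, not relative to all genes, overlapped at -0.35 and -0.83 in het and -1.09 and -0.77 in WT. The median difference was 0.03 once length and GC trends were removed and -0.03 without het sample 1. A C followed by at least 4 pyrimidines was found at the annotated RefSeq start (GRCm38.p6) of 14 of the 59 that had one in the table (23.7%) and of 3.13% of all genes tested that did. Elongation factors and other TOP mRNAs had 0.23, and initiation factors 0.14 (0.30 and 0.17 with those trends removed), the last with 4 members positive and 4 negative. The positive ones included Eif6 (0.97), an anti-association factor, and the negative ones the scaffold-like Eif4g2 (-1.26) and Eif3a (-1.16), the largest subunit of eIF3. Pabpc1, the cytoplasmic poly(A)-binding protein, had -1.32 (SE 0.43, adjusted p = 0.457).

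The partners of 4E-T showed no common direction. Of 8 genes of the eIF4E family and its binding proteins, 1 had an unadjusted p under 0.05. This was Eif4e2, or 4EHP, a cap-binding repressor, with an efficiency of 0.07 and 0.29 in het and -0.90 and -0.86 in WT and a difference of 1.07 (SE 0.33, adjusted p = 0.439). Eif4ebp2, an inhibitor of eIF4E, had -0.94 (SE 0.48, adjusted p = 0.584) and the eIF4E-like Eif4e3 had 0.38 (SE 0.43, adjusted p = 0.806). The list median of -0.11 changed sign in 6 of the 21 alternatives.

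P-body and storage proteins and mRNA decay factors lay below all genes. For P-body and oocyte storage proteins the median was -0.28, with 6 of 30 negative and 1 positive at an unadjusted p under 0.05. Next to Ybx1 and Ybx3, Fmr1, the RNA-binding repressor FMRP, had an efficiency of -0.38 and -0.78 in het and 1.47 and 1.70 in WT. Its difference of -2.31 (SE 0.47, adjusted p = 0.231) came with a transcriptome that rose by a log2 of 2.46 (SE 0.35, adjusted p = 0.00617). For deadenylation, decapping and decay factors the median was -0.27, with 7 of 40 negative and none positive. These included the exonuclease Xrn1 (-1.44) and the decapping enzyme Dcp2 (-1.02) beside Tob1 (-1.59) and Btg1 (-1.13). With the length and GC trends removed the medians were -0.18 for storage proteins and -0.01 for decay factors.

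Oocyte, meiotic and chromatin genes also had negative medians. Of 49 genes of DNA methylation, imprint protection and chromatin, 9 were negative and 2 positive at an unadjusted p under 0.05, and the median was -0.51, the lowest of the lists. Dnmt1, the maintenance DNA methyltransferase, had an efficiency of 0.80 and 0.04 in het and 1.43 and 2.13 in WT, and Zfp57, which protects imprints, had -2.05 and -1.16 in het and 0.14 and -0.66 in WT. Their differences were -1.30 (SE 0.42, adjusted p = 0.457) and -1.35 (SE 0.40, adjusted p = 0.420), and the nucleosome remodeller Smarcad1 had -1.57. This list also had the longest transcripts, with a median exon length of 6766 bases against 2905 for all genes, and its median was -0.33 once length and GC trends were removed.

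Meiotic cell cycle genes had a median of -0.23, which was -0.07 with length and GC trends removed and -0.10 without the second het translatome, with 9 of 59 negative and 2 positive at an unadjusted p under 0.05. Plk4, the kinase of centriole assembly, had an efficiency of -1.49 and -0.80 in het and 0.68 and 0.15 in WT, with a difference of -1.54 (SE 0.37, adjusted p = 0.320). Sgo2a, which protects cohesin at centromeres, had -1.36 and Ckap5, a microtubule polymerase, had -1.09. Maternal mRNAs known to be translationally activated at maturation had a median of -0.41, which was -0.19 with those trends removed, -0.24 without the first het translatome and -0.82 without het sample 2. At an unadjusted p under 0.05, 2 of 13 were negative, Tex19.1 (-1.19) and Dcp2. Dcp1a, at -0.56, was not past that p. Oocyte and maternal-effect genes had -0.26, which was 0.01 without the second WT translatome, and 2 members on each side. Kit, the receptor of oocyte growth, had an efficiency of 0.40 and -0.52 in het and 0.80 and 2.15 in WT, and Zbed3, of the subcortical maternal complex, had -2.12 and -1.63 in het and 0.53 and -1.43 in WT. In both genes the 2 WT samples lay far apart.

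**Figure D5:**
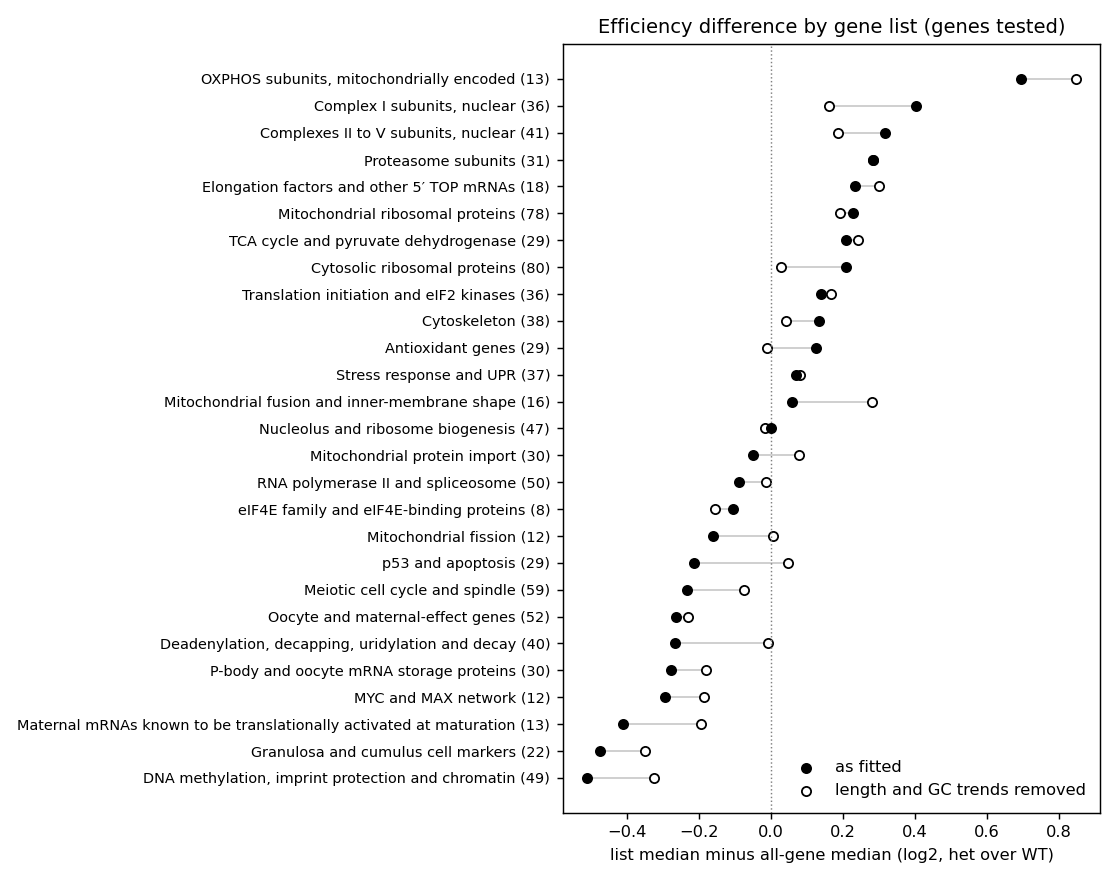
Median efficiency difference of each gene list minus that of all genes (log2, het over WT, x axis), with the number of genes tested in parentheses. Filled circles are the values as fitted and open circles those after per-library length and GC trends were removed. Mitochondrially encoded subunits lie highest, at 0.69 and 0.85, and chromatin genes lowest of the oocyte lists, at -0.51 and -0.33.

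Proteasome subunits had a median of 0.28 as fitted and with length and GC trends removed, and it was positive in all 21 alternatives. Of 31 subunits 30 were positive in sign, 4 of them at an unadjusted p under 0.05, with Psmb7, a catalytic subunit, as the exception at -1.61 (SE 0.37, adjusted p = 0.309). Cytoskeletal genes had 0.13, with Arpc1b of the Arp2/3 complex at 1.16 and its partner Actr2 at -1.22, and the actin-severing Cfl1 at -1.04. Stress response (0.07), antioxidant (0.12), nucleolar (0.00) and RNA polymerase II and splicing genes (-0.09) had medians whose sign depended on the alternative. So did p53 and apoptosis genes (-0.21), in which Trp53 had a difference of 0.93 (SE 0.37, adjusted p = 0.520) and Bax 0.69. The MYC network (-0.29) held Mycl and, at 0.90, Mxd3. For Inf2, Pdk2, Srxn1 and Bbc3 at least 1 transcriptome library had 0 counts, and no fold is given.

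Markers of cells that could accompany oocytes had lower sums than oocyte markers, which summed to at least 22577 CPM, and were partly genotype-linked. The 23 granulosa and cumulus markers summed to 755 and 1117 CPM in the het translatome against 218 and 429 CPM in the WT translatome, and to 457 and 342 CPM in the het transcriptome against 122 and 220 CPM in the WT transcriptome. Their sums were thus higher in het in both fractions, though not every marker was. The median efficiency difference of these markers was -0.47, or 0.05 without WT sample 1, with 1 of 22 negative at an unadjusted p under 0.05. Sperm markers summed to at most 21.9 CPM and oviduct markers to at most 61.0 CPM, the highest sum of the blood markers was lower than both, and 3 of 7 sperm markers and 1 of 11 oviduct markers had 0 counts throughout. In bulk samples fewer cells and less RNA per cell cannot be told apart, and the part of granulosa RNA in the efficiency differences was not tested.

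Efficiencies of 6 named noncoding RNAs differed widely. Malat1, a nuclear long noncoding RNA, had an efficiency of 1.85 and 3.19 in het and 2.76 and 3.02 in WT, and Neat1, the scaffold of paraspeckles and like Malat1 chosen after its values were seen, had 4.10 and 4.59 in het and 3.81 and 2.68 in WT. Both are retained in the nucleus in most cells. Their efficiencies lay above the 95th percentile of genes averaging 10 CPM or more, which was 1.38 and 1.51 in het samples and 1.37 and 1.40 in WT samples. Kcnq1ot1, an imprinted antisense RNA also chosen after its values were seen, had 2.68 and 2.34 in het and 1.69 and 0.67 in WT. Of other imprinted RNAs, Meg3 had 0.29 and 0.54 in het and -0.12 and -0.49 in WT, Airn had -0.04 and -0.52 in het and 0.07 and -0.34 in WT, and Snhg14 had -0.91 and 0.03 in het and 0.58 and 0.92 in WT, all chosen after their values were seen. Processed pseudogenes of at least 10 CPM, copies of spliced mRNAs whose reads can be hard to tell from those of the parent gene, had a median efficiency of -0.33 and -0.51 in het and -0.88 and -0.82 in WT. Of these 365 pseudogenes, 50 had a positive and 1 a negative difference at an unadjusted p under 0.05. Among all 9075 genes of that level, 502 were positive and 563 negative. In the decile of shortest exon length 8.10% were positive and 1.01% negative. The part of length and GC in the pseudogene counts was not tested.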

How the data were processed

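The 8 GV oocyte libraries were read from the count table that the authors deposited, which holds whole-number read counts for 56196 genes and no normalization. Reads had been trimmed, aligned to mm10 and counted, and the tools listed are featureCounts 1.6.5, HISAT2 2.1.0 and Trim Galore 0.6.4, per the submitters' processing notes. No source used here states the annotation release, the strand setting or how multimapping reads were treated, so counts of overlapping genes and close copies are uncertain. No molecular identifiers are named in the labels, so amplified copies counted as reads. Of 28 symbols that a spreadsheet had turned into numbers, 27 were restored. Of the identifiers, 54587 matched GENCODE M21, which gave coordinates, exon lengths, GC and 3′ UTRs.

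Genes were filtered with filterByExpr, scaled by TMM and fitted in edgeR 4.0.16 (R 4.3.3) with 4 group means, 2 libraries each. A gene was called at an adjusted p under 0.05. The main fit had no replicate block. The pairing of fractions comes from the specimen number that the labels give to both libraries of a sample. Across 9075 genes, the departures of the 2 libraries of a sample from their group mean had an r of 0.263 in het and 0.0578 in WT. The procedure was tested on simulated data. These were drawn separately for each library, with no shared effect of an oocyte sample and no length or GC trend. The simulation therefore cannot speak to the pairing or to those trends. DESeq2 1.42.0, other scalings and filters, thinning to the shallowest library, a length and GC correction, and omission of each library or sample were alternatives.

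The 30 gene lists and their members were chosen with earlier results of these data known. Named genes were Eif4enif1, all called genes, the 10 smallest p in each direction with samples that do not overlap and a mean of at least 10 CPM, the 5 smallest p in each direction among genes called in 1 fraction with a log2 change under 0.25 in the other, and 3 members per list. Members named from marker lists of other cells are given as sums only. Some values and 1 sequence are not reported here.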

Additional observations from a re-analysis of the deposited data

Results flagged for a closer look

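In 3 genes the fraction difference of het oocytes departed from that of WT oocytes by a test of the difference itself, the interaction term with an adjusted p under 0.05 in edgeR. The efficiency difference was -2.65 for Mtfr2 (SE 0.34), with both het samples below both WT samples. It was -3.77 for Mycl (SE 0.50), also with both het samples below both WT samples, and 3.51 for Gm21887 (SE 0.47), with both het samples above both WT samples. Mtfr2 and Gm21887 also changed in the translatome, at -1.88 (adjusted p = 0.0026) and 2.58 (adjusted p = 0.0026), while Mycl changed in the transcriptome. With every library thinned to the depth of the shallowest, the adjusted p was 0.0759 for Mtfr2, 0.0997 for Mycl and 0.0759 for Gm21887, with the directions kept.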

How the results depend on the processing

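The count of genes with an efficiency difference was the least stable result. It was 3 as fitted, 3 with RLE scaling and 3 with library totals, but 7 with the replicate block, 108 with no expression filter, 1 among genes averaging at least 10 CPM, 108 with DESeq2, 0 with libraries thinned to the shallowest, 5 with length and GC corrected and 11 with that correction and the block together. The thinned edgeR fit had 496 positive and 848 negative genes at an unadjusted p under 0.05. Leaving out libraries or samples gave 0 to 68. The translatome count of 1034 became 2113 with no filter and 1839 with DESeq2, and 1 to 2223 with libraries left out, among them 26 without het sample 1, 154 without the first het translatome and 1329 without the second WT transcriptome. The transcriptome count of 572 became 1554 with no filter, 225 at 10 CPM, 1401 with DESeq2 and 324 when thinned, and 3 to 1654 with libraries left out, among them 8 without het sample 2, 69 without the second het transcriptome and 909 without the first WT translatome. Single libraries moved the efficiency count to 10 without the first WT translatome, to 0 without the first WT transcriptome or any het library, and to 68 or 52 without WT sample 1 or 2. Where an arm kept 1 library, that library was assumed to vary like the others. The replicate block changed the call of no named gene other than Ier5l, Ttn, Gm50322 and Arhgap11a.

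The sign of the difference of 0.02 for Eif4enif1, far from its threshold, reversed to -0.0135 with the replicate block, -0.0617 with RLE, -0.149 with library totals, -0.0679 at 10 CPM, -0.0575 with DESeq2 and -0.00968 when thinned. With single libraries left out it ranged from -0.318 to 0.323, with -0.0648 and -0.0187 between, and it was -0.357 without het sample 1 and -0.0711 without WT sample 2. Eif4e3 reversed to -0.309 without WT sample 1, and the mean per-sample efficiency difference of Srxn1 to -0.268 with 0.1 CPM added in place of 0.5. The causes were not tested. There were 2 samples per genotype, and the shallowest library held 3.62 M counts. Counts carry no molecular identifiers, so depth covers counting error only.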
